A study of Mus musculus with 6 samples.

Results

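The genes described here are the ligands and receptors of axon guidance: the Eph receptors and ephrins, the semaphorins with their plexin and neuropilin receptors, the Slits with their Robo receptors, and the netrins with Dcc and the Unc5 receptors. The rule that picks them reads gene symbols and no array values, but these families were taken up with earlier results of the same arrays known. By that rule 70 of the 19937 genes with a transcript cluster of their own belong here. A transcript cluster is a group of probes covering a single transcribed region. By family there were 13 Eph receptors, 8 ephrins, 7 secreted class 3 semaphorins, 13 other semaphorins, 11 plexins and neuropilins, 3 Slits, 4 Robos, 4 netrins and 5 netrin receptors. The remaining 2, Unc50 and Unc5cl, share only the start of their symbol with the netrin receptors, are not known as guidance genes and are given apart.

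The cells were primary neurospheres, colonies that precursor cells form in suspension, which the labels call small. They came from hippocampal tissue of adult male C57BL/6J mice, 8 to 12 weeks old, grown in medium with EGF and bFGF. For 3 arrays the medium also held 10 µM norepinephrine (N), and for the other 3 it held 15 mM potassium chloride (K); both were harvested on day 14. Norepinephrine is a transmitter that acts on adrenergic receptors, and added potassium chloride depolarises cells. No neurospheres without either agent are among the arrays, so a difference does not tell which agent moved a gene. The labels call the arrays biological replicates and do not say how many mice stand behind each, so p-values measure the spread between these arrays. All values are log2 RMA values, the background-corrected and normalized array signal on a log2 scale, and a log2FC is the mean of the N arrays minus that of the K arrays.

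Guidance cues steer growing axons and migrating cells by attraction or repulsion, and most of the receptors act through small GTPases and the cytoskeleton. Ephrins are bound to the membrane and can also signal back into the cell that carries them. Semaphorins bind plexins, and those of class 3 mostly need a neuropilin as partner. Slits bind Robos and mostly repel. Netrin attracts through Dcc and repels through the Unc5 receptors. Many of these genes are also made by neural precursors and glia, in which they take part in cell sorting, migration and contact with vessels. Because the arrays measured whole neurospheres, fewer cells of a type and less RNA per cell cannot be told apart.

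Of the 7 measured precursor markers, Fabp7 and Sox2 were the brightest. Their means were 12.81 and 10.16 on the N arrays and 12.82 and 9.90 on the K arrays. The median over all clusters and arrays was 6.34. Nes, Hes5, Msi1 and Pax6 had group means from 7.25 to 8.76. Prom1 lay below that median, at 6.16 on the N and 5.76 on the K arrays. The arrays had medians from 6.30 to 6.40, and K replicate 3 had the lowest mean correlation with its own group (r = 0.948 across clusters, which are not independent replicates), while K replicate 2 had a mean r of 0.969 with the N arrays and of 0.954 with its own group. Of the marker lists, that of astrocytes was higher on the N arrays, with 5 of 8 measured genes at an unadjusted P under 0.05 and list means of 8.83 to 9.27 on the N and 8.35 to 8.44 on the K arrays. Gfap had a log2FC of 1.66 (adjusted p = 0.0358 from limma) and Aqp4 one of 1.56 (adjusted p = 0.0738). Gja1 and Slc1a3 had smaller ones of 0.26 and 0.15, and S100b went the other way at -0.47 (unadjusted P = 0.160 by limma). The oligodendrocyte lineage list had means of 7.66 to 7.69 on the N and 7.70 to 7.80 on the K arrays, with 0 of 7 measured genes at an unadjusted P under 0.05 by limma. The means of the endothelial list, 5.61 to 5.69 on the N and 5.64 to 5.81 on the K arrays, overlapped and lay below the median of all clusters. The list means also overlapped for precursors (1 gene higher, Prom1, and 1 lower, Nes, at an unadjusted P under 0.05), neurons (2 higher, 1 lower), pericytes and meningeal fibroblasts (1 lower, Foxc1) and microglia (0 either way).

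The data showed lower signal with N for a group of plexins and for the transmembrane semaphorin Sema6a. Over the other families they resolved few differences, which with 3 arrays per group does not show that there were none. Plxna2, Plxnb2, Plxnb3 and Plxnc1 were each 1.45 to 1.56 times lower on the N arrays, and Sema6a was 2.07 times lower. Among the genes with smaller differences, Slit2 was 1.34 times lower, and the netrin receptor gene Dcc and the semaphorin gene Sema5a were 1.31 and 1.23 times higher. None of these passed once all genes were allowed for: 0 of the 70 genes had an adjusted p under 0.05 (limma, Benjamini-Hochberg over all genes tested), where 0.155% of all genes did, and the smallest adjusted p was 0.185, that of Plxnb3. At an unadjusted P under 0.05 there were 10 of 70 genes, or 14.3%, against 8.54% of all genes tested. Without N replicate 2 there were 6, and the share of all genes was not computed for that fit. Of the 10, 8 were lower with N, 11.4% of the 70 against 3.89% of all genes, and 2 were higher, 2.86% against 4.64%. The positive set of the study's methods, which asks for an absolute log2FC above 1 beside an unadjusted P under 0.05, took in 1 of the 70, Sema6a, or 1.43% against 0.492% of all genes.

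**Figure D1:**
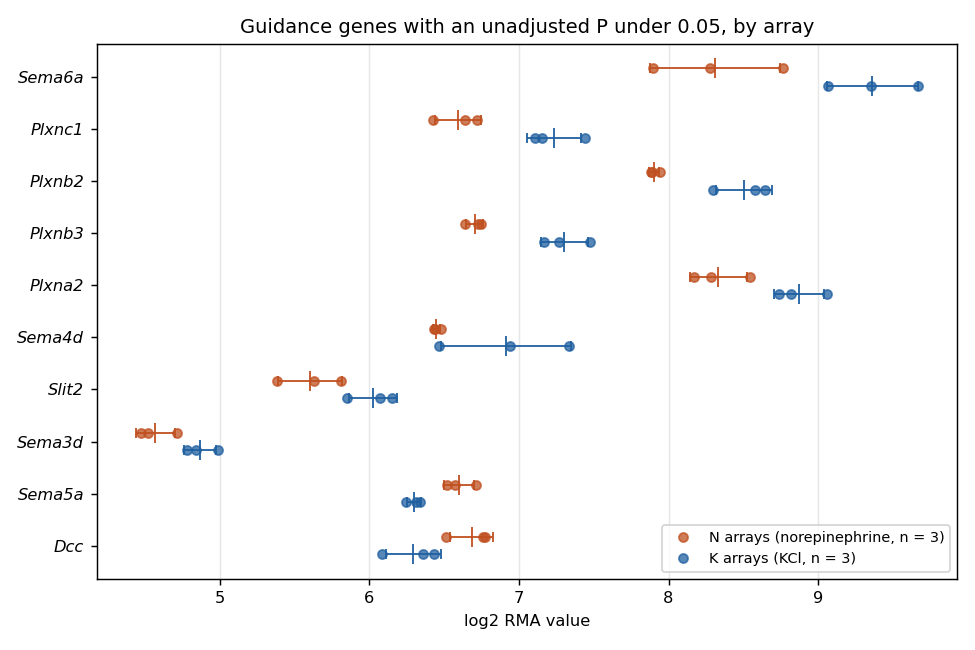
Log2 RMA values (horizontal axis) of the 10 guidance genes with an unadjusted P under 0.05, one gene per row, with a point for each N array (n = 3) and K array (n = 3), a tick at the mean and a bar of 1 SD to each side. The N and K points of every gene but Sema4d lie apart, and the 4 plexins differ by log2FC from -0.64 to -0.54.

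Promoters were examined for 8 of the 10 genes, and those of Sema6a and Dcc were not used here. For 4 of the 8 the stretch before a listed transcription start lies at least in part outside the annotated gene, so that its sequence can be shown as promoter and not as transcript. They are printed to set plexins that were lower with N beside a semaphorin that was lower and one that was higher. The sequences are those of RefSeq on GRCm38.p6, 5′ to 3′ on the strand of the gene, cut where the annotated gene begins. Capitals mark a GC box, the site of Sp1 family factors (GGGCGG or its reverse complement CCGCCC, overlapping sites counted), and a core of the cAMP response element bound by CREB (TGACG or CGTCA). Plxna2 lies on chr1:194619579-194619790 (plus strand), Plxnc1 on chr10:94945016-94945095 (minus strand), Sema3d on chr5:12382916-12383160 (plus strand) and Sema5a on chr15:32244563-32244812 (plus strand).
Plxna2: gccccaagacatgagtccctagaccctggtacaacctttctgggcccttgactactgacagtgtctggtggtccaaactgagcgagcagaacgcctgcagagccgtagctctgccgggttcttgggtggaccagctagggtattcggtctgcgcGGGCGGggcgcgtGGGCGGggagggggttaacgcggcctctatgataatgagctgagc
Plxnc1: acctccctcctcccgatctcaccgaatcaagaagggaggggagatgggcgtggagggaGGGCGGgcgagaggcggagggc
Sema3d: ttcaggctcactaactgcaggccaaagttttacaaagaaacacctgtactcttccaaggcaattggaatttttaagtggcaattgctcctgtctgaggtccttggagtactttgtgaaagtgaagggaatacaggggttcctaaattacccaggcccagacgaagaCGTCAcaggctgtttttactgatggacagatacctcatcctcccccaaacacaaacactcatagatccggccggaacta
Sema5a: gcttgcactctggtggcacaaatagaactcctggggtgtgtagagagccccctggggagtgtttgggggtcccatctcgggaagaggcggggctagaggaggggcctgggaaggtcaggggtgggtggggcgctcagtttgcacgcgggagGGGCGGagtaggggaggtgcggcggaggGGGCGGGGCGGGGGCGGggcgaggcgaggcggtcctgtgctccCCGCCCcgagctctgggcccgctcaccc

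In the full window of 250 bases before the outermost listed start, Plxna2 held 2 GC boxes, Plxnc1 4, Sema5a 5 and Sema3d 0, and the CRE core stood only before Sema3d, which held 1. For Plxnc1 only 80 of the 250 bases lay outside the annotated gene. The windows of the other 4 genes examined lay wholly inside it, so they are not like the printed stretches. Of these, Plxnb2 held 4 GC boxes, Slit2 3, and Plxnb3 and Sema4d 0, and none of these held a CRE core. Among the 7 examined genes lower with N there were thus windows with and without a GC box, and their GC content ran from 46.8% for Sema3d to 69.6% for Slit2, while that of Sema5a was 72.0%. In all, 60 of the 70 genes matched a start in the table, with 76 starts, of which 55 (72.4%) had a GC box and 7 (9.21%) a CRE core. Over the 19176 starts of all genes tested the shares were 45.5% and 21.4%. A match of letters is a description of the window and not a binding site, and no match says nothing about a factor.

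Of the 8 genes lower with N, 4 were plexins. Plxnb3, a receptor of Sema5a known in oligodendrocytes, read 6.75, 6.73 and 6.64 on the N arrays and 7.17, 7.27 and 7.47 on the K arrays. Plxnb2, a broadly made receptor of class 4 semaphorins needed for the proliferation and migration of granule cell precursors in the mouse cerebellum, read 7.89, 7.88 and 7.94 on the N arrays and 8.29, 8.58 and 8.65 on the K arrays. In both the N arrays lay close together and the K arrays spread more, with every K array above every N array. The log2FC was -0.60 for Plxnb3 (SE 0.13, unadjusted P = 0.00120, adjusted p = 0.185 from limma) and -0.60 for Plxnb2 (SE 0.13, unadjusted P = 0.00148, adjusted p = 0.210). Plxnc1, the receptor of Sema7a, read 6.42, 6.72 and 6.64 on the N and 7.11, 7.16 and 7.44 on the K arrays, with a log2FC of -0.64 (SE 0.14, unadjusted P = 0.00165, adjusted p = 0.217). Plxna2, a receptor of Sema6a that also pairs with neuropilins, read 8.29, 8.54 and 8.17 on the N and 8.74, 9.06 and 8.82 on the K arrays, with a log2FC of -0.54 (SE 0.15, unadjusted P = 0.00557, adjusted p = 0.310). The groups did not overlap in any of these 4 genes, and each kept an unadjusted P under 0.05 under all 16 alternatives run on it, with adjusted p-values between 0.157 and 0.662. On GRCm38 (mm10) they lie apart: Plxna2 on chromosome 1 from 194619791 to 194816869, Plxnc1 on chromosome 10 from 94790866 to 94945015, Plxnb2 on chromosome 15 from 89155546 to 89182018 and Plxnb3 on chromosome X from 73756556 to 73772510.

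The other 7 plexins and neuropilins had an unadjusted P over 0.05 by limma, although Plxnb1 and Plxna4 were also lower with N. Plxnb1, the high-affinity receptor of Sema4d, read 7.59, 7.57 and 7.62 on the N arrays and 7.70, 8.06 and 7.67 on the K arrays; its groups lay apart, K replicate 2 was the highest, and the log2FC was -0.22 (SE 0.14, unadjusted P = 0.150). Plxna4 had a log2FC of -0.21 (95% interval -0.60 to 0.19), Plxna1 0.04 (-0.23 to 0.32), Plxna3 0.08 (-0.24 to 0.41) and Plxnd1, a receptor best known in endothelial cells, 0.12 (-0.26 to 0.50). Nrp1 and Nrp2, the neuropilins that bind class 3 semaphorins and VEGF, had a log2FC of 0.21 (-0.12 to 0.53) and 0.08 (-0.17 to 0.33). Of these intervals only that of Plxna4 reached down to -0.54, the smallest in size of the 4 differences above. In the whole family 4 of 11 genes were lower at an unadjusted P under 0.05, against 3.89% of all genes. A negative log2FC was found for 6 of 11, or 54.5%, which is under the 57.0% of all genes, and the median was -0.21, where the median over all genes tested was -0.03. That median rests on the arrays used, at -0.06 without N replicate 2 and -0.09 without K replicate 2, while the count of 4 was kept in both cases.

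**Figure D2:**
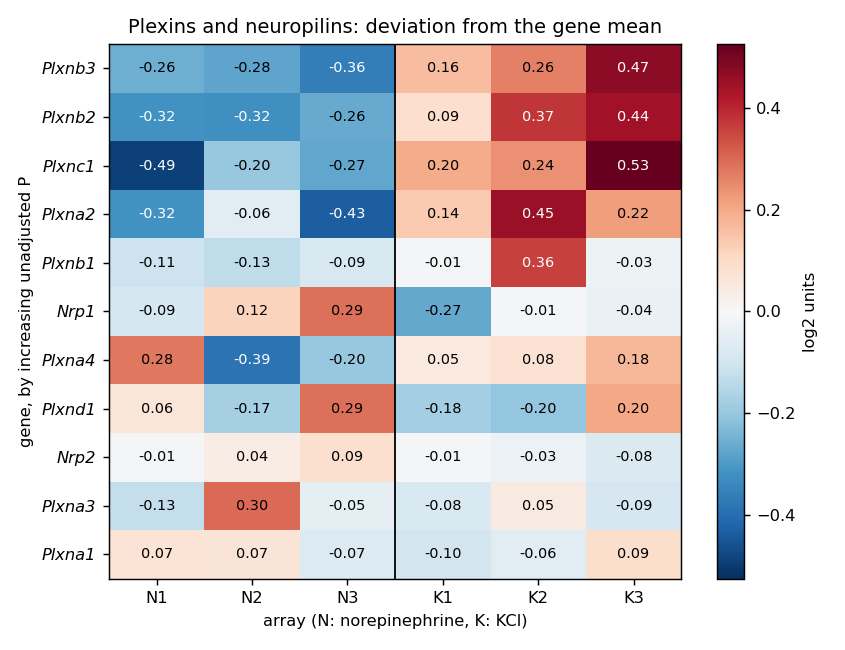
Deviation of each plexin and neuropilin from its own mean over the 6 arrays (colour and printed number, log2 units), with genes in rows by increasing unadjusted P and arrays in columns. The upper 4 rows are negative on all 3 N arrays and positive on all 3 K arrays, and the rows under Plxnb1 show no such division.

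The 4 plexins had no common order of the N arrays, while K replicate 1 was the lowest K array for all 4. The highest N array was N replicate 1 for Plxnb3, N replicate 3 for Plxnb2 and N replicate 2 for Plxnc1 and Plxna2. K replicate 3 was the highest for Plxnb2, Plxnb3 and Plxnc1, and without it the log2FC of each of the 4 genes still had an unadjusted P under 0.05. The means of the oligodendrocyte lineage list were lower on all N arrays, narrowly, at most 7.69 against at least 7.70 on the K arrays. Of its 7 measured genes, 3 had a positive log2FC (Mog 0.11, Sox10 0.11 and Mbp 0.10). The others were negative: Cspg4 had -0.31, Olig1 -0.25 with separate groups, Olig2 -0.20 and Pdgfra -0.13. The means of the astrocyte list were higher on the N arrays. The part of both lists in the plexin values was not tested.

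Among the semaphorins, Sema6a was lower with N by the largest amount. It codes for a transmembrane semaphorin that binds Plxna2 and Plxna4 and, in mice, takes part in the migration of granule cell precursors. It read 8.76, 7.89 and 8.28 on the N arrays and 9.06, 9.35 and 9.67 on the K arrays, so that the groups did not overlap but N replicate 1 came near K replicate 1. The log2FC was -1.05 (SE 0.24, 95% interval -1.59 to -0.51, unadjusted P = 0.00176, adjusted p = 0.222). Without N replicate 2 or K replicate 3 the log2FC was -0.84 and -0.90, and Sema6a then left the positive set; its unadjusted P was under 0.05 under all 16 alternatives, with adjusted p-values between 0.193 and 0.667. Its receptor Plxna2 was lower with N as well, while for Plxna4, the other receptor, the interval included 0.

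Sema4d, a ligand of Plxnb1 and Plxnb2, read 6.43, 6.48 and 6.44 on the N arrays and 6.94, 6.47 and 7.33 on the K arrays, so that K replicate 2 lay among the N arrays. The log2FC was -0.47 (SE 0.20, unadjusted P = 0.0479, adjusted p = 0.579). A second cluster of the gene gave 6.58, 6.42 and 6.46 on the N and 6.40, 6.38 and 6.51 on the K arrays, with a log2FC of 0.06, so that the probes of this gene disagreed and its direction is uncertain. The P passed 0.05 under 6 of 16 alternatives.

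Sema5a, a semaphorin with thrombospondin repeats that binds Plxnb3, was higher with N: 6.71, 6.58 and 6.52 against 6.25, 6.34 and 6.31 on the K arrays. The groups lay apart, and the log2FC was 0.30 (SE 0.12, unadjusted P = 0.0294, adjusted p = 0.527). Ligand and receptor thus differed in opposite directions here. Its P was over 0.05 when either N replicate 1 or 2, or else K replicate 1, was dropped. Among the other 10 semaphorins outside class 3, the log2FC ran from -0.32 for Sema4g to 0.06 for Sema6b, and Sema7a, the ligand of Plxnc1, had 0.02 (95% interval -0.31 to 0.36). Sema4c, a ligand of Plxnb2, had -0.13 (-0.42 to 0.16), and Sema6d -0.26 (-0.62 to 0.09).

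The secreted semaphorins of class 3 had a median log2FC of 0.01. Sema3d, the only one with an unadjusted P under 0.05, was dim: it read 4.47, 4.52 and 4.72 on the N arrays and 4.79, 4.99 and 4.84 on the K arrays, with a log2FC of -0.30 (SE 0.13, unadjusted P = 0.0419, adjusted p = 0.564). It kept a P under 0.05 in only 5 of 15 alternatives. Sema3a, the classic repellent of this class that signals through Nrp1, read 8.44, 8.04 and 7.92 on the N and 7.91, 7.97 and 7.47 on the K arrays, where the groups overlapped, and had a log2FC of 0.35 (SE 0.19, unadjusted P = 0.0957). Sema3c had 0.23 (95% interval -0.14 to 0.59). The other 4 lay between -0.14 for Sema3b and 0.03 for Sema3e.

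Of the 7 Slits and Robos 6 had a negative log2FC, where 57.0% of all genes tested had one. Slit2, a repellent of commissural and other axons, read 5.81, 5.63 and 5.38 on the N arrays and 6.07, 6.16 and 5.85 on the K arrays, all below the median of all clusters. The groups were only just separate, with N replicate 1 close to K replicate 3, and the log2FC was -0.42 (SE 0.15, unadjusted P = 0.0224, adjusted p = 0.493). It kept a P under 0.05 under 10 of 15 alternatives, and not without moderation of the variances, after cyclic loess normalization or without N replicate 3, K replicate 1 or K replicate 2. Slit1 and Slit3 had a log2FC of 0.13 (95% interval -0.19 to 0.45) and -0.12 (-0.40 to 0.17). Robo2, which with Robo1 is a main neural receptor of the Slits, read 7.48, 7.19 and 7.06 on the N and 7.53, 7.59 and 7.47 on the K arrays, with overlap at N replicate 1, and had a log2FC of -0.29 (SE 0.14, unadjusted P = 0.0713). Robo1 had -0.06 (-0.35 to 0.23), Robo3 -0.02 (-0.32 to 0.27) and Robo4, known from endothelial cells, -0.11 (-0.40 to 0.19). On GRCm38, Slit2 lies on chromosome 5 from 47981291 to 48307735.

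**Figure D3:**
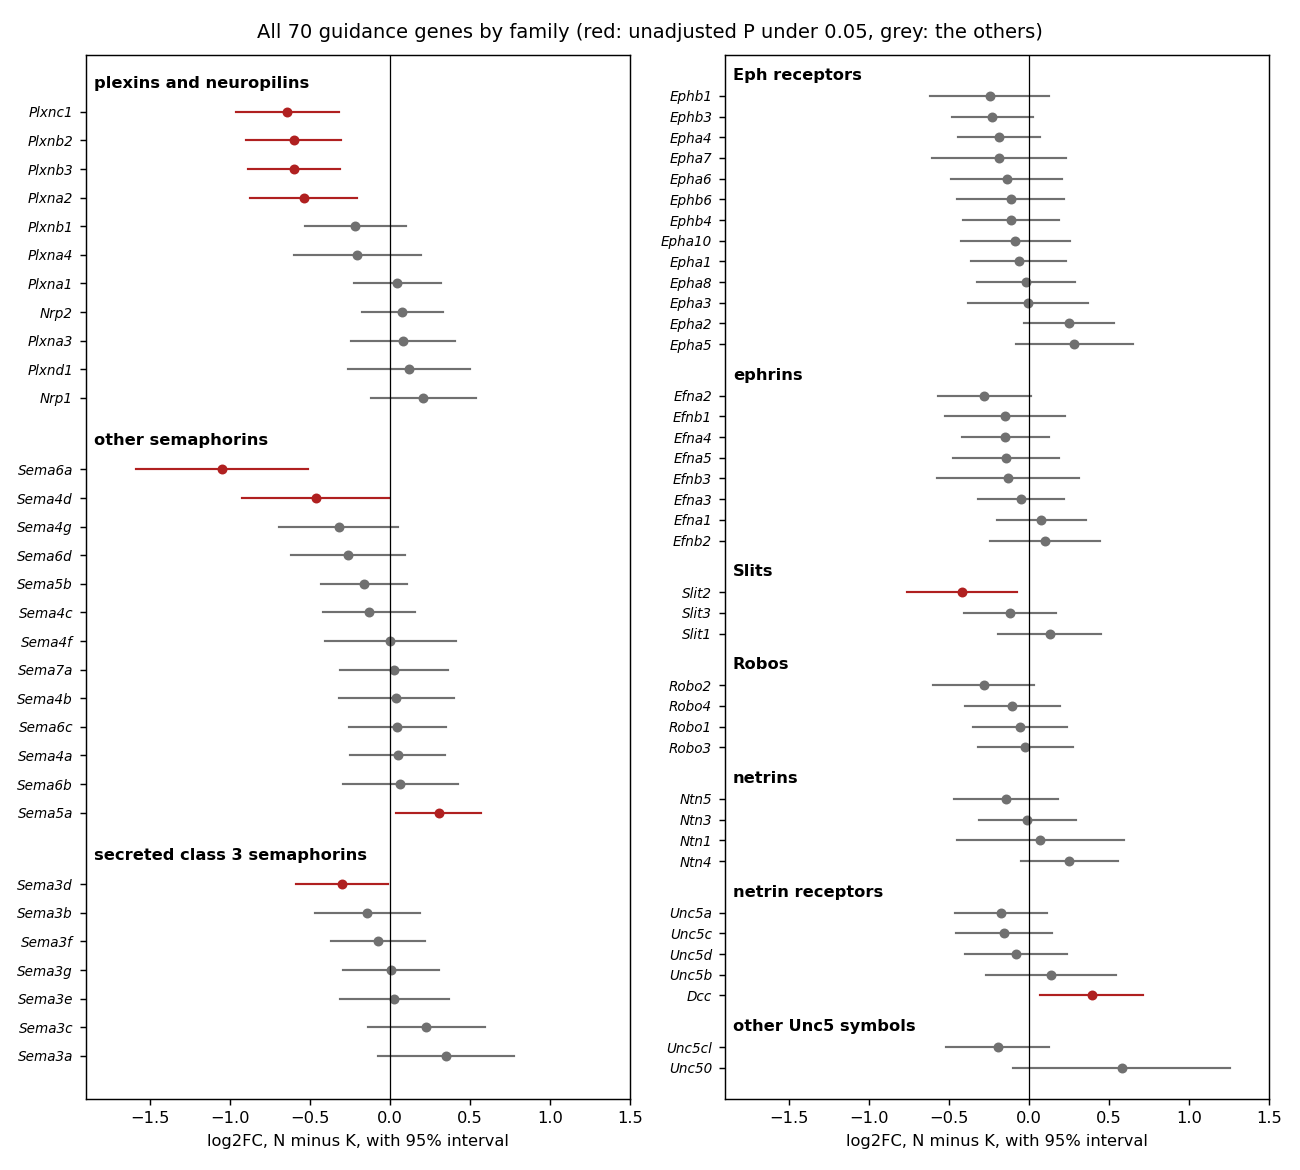
Log2FC of N minus K (horizontal axis) of all 70 guidance genes by family, with the 95% interval of the limma fit as a line (n = 3 arrays per group). Points in red have an unadjusted P under 0.05; the 4 plexins and Sema6a have intervals that end at -0.20 or below, and most other intervals include 0.

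Dcc, the netrin receptor of attraction, was the guidance receptor with the largest positive log2FC. It read 6.76, 6.78 and 6.52 on the N arrays and 6.09, 6.44 and 6.36 on the K arrays, with no overlap but N replicate 3 close to K replicate 2. The log2FC was 0.39 (SE 0.14, unadjusted P = 0.0237, adjusted p = 0.494). Its P was over 0.05 once K replicate 1 was dropped, and likewise for N replicates 1 and 2. The repulsive receptors Unc5a, Unc5b, Unc5c and Unc5d had a log2FC of -0.18, 0.14, -0.16 and -0.08, none at an unadjusted P under 0.05. Among the ligands, Ntn1 read 7.01, 7.09 and 7.84 on the N and 7.30, 6.98 and 7.45 on the K arrays; N replicate 3 alone was high, the SD of 0.45 over the N arrays was the largest of all 70 genes in that group, and the log2FC of 0.07 had an interval from -0.45 to 0.59. Ntn4, a basement membrane netrin, read 8.13, 7.88 and 7.97 on the N and 7.91, 7.62 and 7.69 on the K arrays, with a log2FC of 0.25 (SE 0.13, unadjusted P = 0.0942) and overlapping groups. Ntn3 and Ntn5 had -0.01 and -0.15.

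The Eph receptors and ephrins, 21 genes, held none at an unadjusted P under 0.05 by limma on the deposited values. Epha2 passed under other normalizations and without moderation of the variances, and without moderation Ephb3, Epha4 and Efna2 passed too. Efna2 also passed with a trended and robust moderation. Of the 13 receptors 11 had a negative log2FC, where 57.0% of all genes tested had one. Their median was -0.12, and the range was -0.25 to 0.28. Ephb3 read 6.58, 6.57 and 6.59 on the N and 6.83, 6.86 and 6.74 on the K arrays, with separate groups and a log2FC of -0.23 (SE 0.11, unadjusted P = 0.0675). Epha4, a receptor for ephrins of both classes, known in astrocytes and neurons of the hippocampus, read 6.23, 6.27 and 6.22 against 6.51, 6.41 and 6.36, with a log2FC of -0.19 (SE 0.11, unadjusted P = 0.131). Their small differences were repeated on every array of each group, and the interval of each included 0. Epha2 read 6.35, 6.64 and 6.44 on the N and 6.21, 6.25 and 6.23 on the K arrays, with a log2FC of 0.25 (SE 0.12, unadjusted P = 0.0748), and Epha5 had 0.28 (95% interval -0.09 to 0.65). Of the 8 ephrins 6 had a negative log2FC, against the same 57.0% of all genes, with a median of -0.14. Efna2 read 5.94, 5.90 and 5.76 on the N and 6.12, 6.01 and 6.30 on the K arrays, the only ephrin with separate groups, with a log2FC of -0.28 (SE 0.13, unadjusted P = 0.0580). Efna4, Efna5, Efnb1 and Efnb3 had log2FC from -0.15 to -0.13, and Efnb2, the ephrin of arteries and of hippocampal astrocytes, had 0.10 (95% interval -0.25 to 0.44).

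Counted by separation alone, 11 of 70 genes had all N arrays below all K arrays, 15.7% against 7.55% of all genes tested, and 3 had all N arrays above, 4.29% against 5.78%. The 11 were Efna2, Epha4, Ephb3, Plxna2, Plxnb1, Plxnb2, Plxnb3, Plxnc1, Sema3d, Sema6a and Slit2, and the 3 were Dcc, Epha2 and Sema5a. For 1 gene, the smallest p that an exact two-sided permutation test allows in this design is 0.1. The share of genes with a negative log2FC was 62.9% among the 70 and 57.0% among all genes. The standard error of a guidance gene's log2FC had a median of 0.14, and 6 of the 70 had a log2FC over 0.5 in size. The sixth of them, after the 4 plexins and Sema6a, was Unc50, which codes for a Golgi protein and read 9.86, 9.94 and 9.21 on the N and 8.99, 9.72 and 8.58 on the K arrays, with overlap and a log2FC of 0.58 (SE 0.30, unadjusted P = 0.0851). Its unadjusted P was 0.0270 without N replicate 3 and 0.00872 without K replicate 2, with adjusted p-values of 0.643 and 0.205 (limma). Unc5cl, a death domain protein gene, had -0.20.

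Partners of these genes were taken from a pair of lists, and the difference between the lists was not tested. Of 26 measured co-receptors and other cues, 5 were higher with N at an unadjusted P under 0.05 and 0 lower, where 4.64% of all genes tested were higher and 3.89% lower, and 0 had an adjusted p under 0.05 by limma. In this list 14 of 26 genes had a positive log2FC, with a median log2FC of 0.06, where 57.0% of all genes tested had a negative one. All 5 code for proteins at the cell surface, a trait that the choice of the list favours. Nrcam, an adhesion protein that acts as a co-receptor with neuropilins, read 8.76, 8.73 and 8.44 on the N and 8.11, 8.17 and 7.90 on the K arrays, with a log2FC of 0.58 (SE 0.14, unadjusted P = 0.00275, adjusted p = 0.263). Its relative Chl1 read 10.45, 10.36 and 10.30 against 10.01, 9.98 and 9.79, with a log2FC of 0.44 (SE 0.12, adjusted p = 0.313). The receptor tyrosine kinase gene Met, which plexins of class B can associate with, was dim, at 5.38, 5.20 and 5.33 against 4.75, 4.68 and 4.95, with a log2FC of 0.51 (SE 0.13, adjusted p = 0.267). Dscam, a further netrin receptor, and Cntn1, a contactin, had 0.29 and 0.55, and the Cntn1 arrays overlapped. Neo1, the relative of Dcc, had 0.18 (unadjusted P = 0.208).

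Of 46 measured intracellular effectors, 4 were higher and 5 lower with N at an unadjusted P under 0.05, against the same 4.64% and 3.89% of all genes, and 0 had an adjusted p under 0.05 by limma. The median log2FC was -0.04, and 20 of 46 were positive, where 57.0% of all genes tested were negative. Chn1, which codes for a chimaerin, a GTPase-activating protein of Rac that acts after Eph receptors, read 10.14, 10.13 and 10.02 on the N and 9.53, 9.40 and 9.46 on the K arrays. Its log2FC of 0.63 (SE 0.11, unadjusted P = 4.15e-04, adjusted p = 0.116) had the smallest P of both partner lists, and its groups did not overlap. Dpysl3, a collapsin response mediator, read 7.77, 7.76 and 8.08 against 6.73, 7.05 and 7.41, with a log2FC of 0.81 (SE 0.19, adjusted p = 0.249). The adaptor gene Nck1 had 0.93 (SE 0.27, adjusted p = 0.355), with K replicate 3 at 6.60 and the other K arrays at 7.60 and 7.74. Among the genes lower with N, Srgap2, a GTPase-activating protein of the Slit and Robo pathway, read 9.34, 9.11 and 8.88 against 9.52, 9.59 and 9.54, with a log2FC of -0.44 (SE 0.14, adjusted p = 0.419). Rgs3, known to link B ephrins to G protein signalling, and the kinase gene Abl1, which acts after Robo, had -0.50 and -0.36 (adjusted p = 0.494 and 0.511 from limma). Of the genes for proteins that act after plexins, Farp1 and Farp2 had -0.37 and -0.04, Rnd1 -0.06, Arhgef11, which class B plexins bind, -0.27, and Arhgef12, which they also bind, 0.08. These are a choice from the list and do not stand for all of it. The small GTPase genes Rhoa, Rac1 and Cdc42 on it had 0.32, 0.20 and 0.24, none at an unadjusted P under 0.05 (0.0523, 0.134 and 0.0950 by limma).

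**Figure D4:**
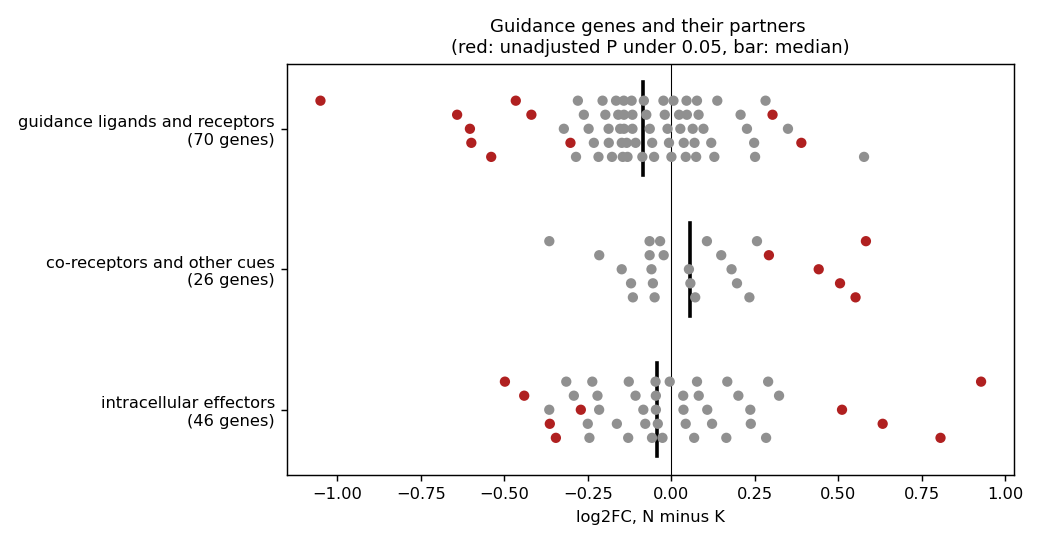
Log2FC of N minus K (horizontal axis) of the 70 guidance ligands and receptors, 26 co-receptors and other cues and 46 intracellular effectors, as points, where a black bar gives the median. The points with an unadjusted P under 0.05, in red, lie mostly on the left of 0 for the first list, all on the right for the second and on both sides for the third.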

How the data were processed

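The authors hybridised neurosphere RNA to Affymetrix Mouse Gene ST arrays and deposited log2 values summarised by RMA in Partek; versions and settings are not given in the sources used here. Of 34760 transcript clusters, the 21640 with a single symbol in the platform annotation gave 19937 genes, the cluster with the highest mean being used; 4 guidance genes had more than 1. The 70 members, their families, the partner and marker lists and the tests were chosen with earlier results of these data known. Differences between N and K came from lmFit and eBayes of limma 3.58.1 under R 4.3.3 ( 4 residual and 4.59 prior degrees of freedom), with Benjamini-Hochberg adjustment over all genes, and tested on simulated data. Named genes are those with an unadjusted P under 0.05, up to 3 per family with the smallest P, up to 6 per partner list, up to 2 per marker list, and textbook members, of which 1 is not reported here; others complete a count or a ligand and receptor group. Alternatives changed the model terms, the moderation, the normalization between arrays, the clusters used or the fold threshold, or left out 1 array. With 3 arrays per group, precision is limited by their number. Gene and promoter coordinates are RefSeq GRCm38.p6. Figures were drawn with matplotlib 3.10.9.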

Additional observations from a re-analysis of the deposited data

How the results depend on the processing

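The count of 10 guidance genes at an unadjusted P under 0.05 ranged from 6 to 12 when 1 array was left out (6 without N replicate 2) and was 10 with the replicate block, but not for the same genes: Sema3d and Sema5a lost the call (unadjusted P = 0.0625 and 0.0567 from limma) and Unc50 and Sema3a gained it (0.00740 and 0.0465), which left 7 lower and 3 higher with N. The replicate numbers are not known to pair the arrays. Deviations of same-numbered arrays correlated at r = 0.06, 0.04 and 0.06, and those of differently numbered arrays at r from -0.10 to 0.05. The count lower with N was 5 with clusters above the median only. The count at an adjusted p under 0.05 was 0 under all 16 alternatives, also where all clusters were tested. The positive set held 0 guidance genes with cyclic loess normalization and K replicate 3 left out, 0 to 1 with 1 array left out and 4 at a threshold of 1.5-fold. Separate groups were seen in 14 genes on all arrays and in 19 to 30 with 1 array left out, the most without N replicate 1 (26) and K replicate 2 (30). Groups of 2 separate more easily. The share of all genes tested was not computed under the alternatives, so no count under an alternative can be read against one. The log2FC of Robo1 ran from -0.10 to 0.024 and that of Ntn1 from -0.19 to 0.22 with 1 array left out, neither with a call. Leaving out 1 array also took the unadjusted P of some genes under 0.05 by limma: Robo2 (0.0226) and Epha5 (0.0406) without N replicate 1, Epha5 (0.0489) and Efna2 (0.0332) without K replicate 2, and Ntn4 (0.0467) and Sema3c (0.0438) without K replicate 1. Changes to the normalization or the moderation did so for Eph and ephrin genes as well, and for Robo2, with a limma P of 0.0496 after quantile normalization. Efna2 had a limma P of 0.0464 with a trended and robust moderation. Epha2 had a limma P of 0.0449 after quantile normalization, 0.0471 with arrays centred on the median and 0.0386 after cyclic loess normalization. Without moderation, the t test of the linear model gave 0.00328 for Ephb3, 0.0154 for Epha4, 0.0433 for Epha2 and 0.0498 for Efna2. The causes were not tested. All 4 plexins named first kept their direction and an unadjusted P under 0.05 under every alternative, so that 4 to 5 of the 11 plexins and neuropilins passed. The values used carry no detection call.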
